A study of Mus musculus with 77 samples.

Results

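The miR-17/92 cluster and its relatives, the miR-106b/25 cluster and the miR-106a cluster of the X chromosome, are 3 polycistronic microRNA (miRNA) clusters. Their mature miRNAs were followed in 2 tissues of mice after chronic social defeat stress (CSDS). These were blood cells and the BNST (bed nucleus of stria terminalis), a forebrain region of the anxiety circuit. The members were chosen by name: mmu-miR-17-5p, mmu-miR-18a-5p, mmu-miR-19a-3p, mmu-miR-19b-3p, mmu-miR-20a-5p, mmu-miR-92a-3p, mmu-miR-106a-5p, mmu-miR-106b-5p, mmu-miR-25-3p and mmu-miR-93-5p (written without mmu, for mouse, from here on), which makes 10 of the 847 mature miRNAs measured in either tissue. In the BNST all 10 were measured, as 11 of 788 entries, because miR-92a-3p was listed under both of its hairpin copies. MiR-19b-3p was listed only under its second copy. In blood 6 of the 10 were measured, among 299 miRNAs. The blood values held 254 5p miRNAs but only 17 3p miRNAs, and the 4 members not analysed there are the 3p members miR-19a-3p, miR-19b-3p, miR-92a-3p and miR-25-3p.

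In CSDS a male mouse is exposed to an aggressor in repeated daily bouts, and a later social interaction test separates susceptible mice, which avoid an unfamiliar mouse of the aggressor strain, from resilient mice, which behave like same-strain controls. All mice were males of the inbred strains C57BL/6Crl (B6) or DBA/2Crl (D2), named C57BL/6NCrl and DBA/2NCrl in the methods of the study, aged 8 weeks, with no transgene, and tissue was taken about a week after the last defeat. The BNST samples were B6 pools of 3 mice from which RNA bound to the Argonaute protein AGO2 was pulled down, with 5 control, 5 resilient and 3 susceptible pools for miRNA and 5, 5 and 4 pools for mRNA. The blood samples were single mice, 5 in each of B6 control, B6 resilient, B6 susceptible, D2 control and D2 susceptible, with miRNA and mRNA measured in the same mice. For 2 D2 mice, 1 labelled control and 1 labelled susceptible, the column heading named the opposite group. The labels were used, and values with the other assignment are given where it changed the call of a miRNA, host gene or target, and for some blood cell markers. The number of reads on miRNAs ranged from 3173294 to 9404828 in the BNST pools and from 6916739 to 10113657 in blood. Levels are log2 CPM, with CPM the reads of a miRNA scaled to a fixed library size, and since the BNST and blood libraries were made with different small RNA kits, a level in one is not on the same scale as a level in the other.

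MiRNAs are short RNAs that guide Argonaute proteins to messenger RNAs, mainly through pairing of the seed, the bases near the 5′ end, to the 3′ untranslated region (UTR). The clusters studied here are transcribed as one precursor RNA that is cut into several hairpins, are induced by MYC and E2F transcription factors, and are best known for promoting proliferation and survival in blood cell precursors and neural progenitors. Known targets of their seeds include the cell cycle inhibitor p21, the apoptosis activator BIM and the glucocorticoid receptor.

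The 10 members carry only 4 seeds, so they are shown by seed, as mature sequences from RefSeq (mouse build GRCm38.p6), 5′ to 3′, with the seed (bases 2 to 8) in capitals. The first family holds 5 members and draws from all 3 clusters.
miR-17-5p: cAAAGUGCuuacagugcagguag
miR-20a-5p: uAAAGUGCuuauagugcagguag
miR-106a-5p: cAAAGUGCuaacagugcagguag
miR-106b-5p: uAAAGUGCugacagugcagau
miR-93-5p: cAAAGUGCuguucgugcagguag

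The second seed, which differs from the first within the seed itself, belongs to a single member.
miR-18a-5p: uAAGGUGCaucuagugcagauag

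The third is shared by the miR-19 pair.
miR-19a-3p: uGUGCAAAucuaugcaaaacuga
miR-19b-3p: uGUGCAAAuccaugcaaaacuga

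The fourth is shared by the most abundant BNST members and by miR-92b-3p, a relative encoded elsewhere in the genome.
miR-92a-3p: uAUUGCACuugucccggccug
miR-25-3p: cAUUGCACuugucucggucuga
miR-92b-3p: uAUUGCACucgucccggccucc

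Counting from 1 at the 5′ end, miR-17-5p and miR-106a-5p differ by the single substitution U10A, and miR-19a-3p and miR-19b-3p by U11C. The level of miR-106a-5p, which in both tissues was far below that of miR-17-5p, therefore depends on how reads were assigned at 1 base and is uncertain. The miR-17/92 hairpins lie at chr14:115043684-115044496 on the plus strand, where 6 members lie within 813 bases in an exon of the long non-coding RNA gene Mir17hg. The miR-106b/25 members span chr5:138165332-138165807 on the minus strand, 476 bases inside Mcm7, a gene for a subunit of the replicative helicase. The members of the miR-106a cluster span chrX:52741854-52742563 on the minus strand, 710 bases that hold miR-106a and second copies of miR-19b and miR-92a.

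In the BNST the members bound to AGO2 were dominated by the miR-92a/25 seed. All members together took 1.12 ± 0.0693% of miRNA reads in control pools, 1.07 ± 0.0521% in resilient and 1.14 ± 0.0326% in susceptible pools (SD, n = 5, 5 and 3). Of the member reads in control pools, 91.6% carried the seed of miR-92a-3p and miR-25-3p, 8.33% the seed of miR-17-5p, 0.0655% that of the miR-19 pair and 0.0117% that of miR-18a-5p. MiR-92a-3p alone accounted for 81.1 ± 1.15% of the member reads in control pools. Since miR-19b-3p was listed only under its second copy, the share of the miR-19 seed is uncertain, and with it the other shares.

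The member with the highest level was miR-92a-3p listed under its first copy (mean 13.13 ± 0.09 log2 CPM in controls, above 96.1% of the miRNAs measured). MiR-25-3p followed at 10.22 ± 0.14, miR-93-5p at 9.73 ± 0.08 and the second copy of miR-92a-3p at 8.23 ± 0.10 (SD, n = 5). How reads were divided between the copies is not given in the sources used here, so the split of miR-92a-3p is uncertain. The remaining members were lower, with miR-106b-5p at 5.59 ± 0.15, miR-17-5p at 5.16 ± 0.22, miR-20a-5p at 4.04 ± 0.35 and miR-19a-3p at 2.75 ± 0.30. The members thus spanned a wide range, from miR-92a-3p, which 2 of the clusters encode, to miR-18a-5p near the limit of detection. The order down to miR-18a-5p was the same in the means of all 3 groups, and neighbours did not overlap in range except for miR-106b-5p and miR-17-5p in control and resilient pools and miR-19a-3p and miR-18a-5p in resilient pools.

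The lowest 3 members rested on few reads. MiR-18a-5p had 5, 7, 0, 3 and 10 reads in the control pools, 7, 30, 17, 34 and 5 in the resilient pools and 13, 7 and 28 in the susceptible pools. MiR-106a-5p had 0 reads in 3 of 5 control pools and at most 15 in any pool. MiR-19b-3p, present only under its second copy, had 0 reads in 3 of 5 control pools and at most 22 in any pool. With so few reads, changes of these 3 entries were not detectable unless very large. No entry for the first copy of miR-19b-3p was analysed here, so the value of its second copy is not the level of the mature miRNA.

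**Figure D1:**
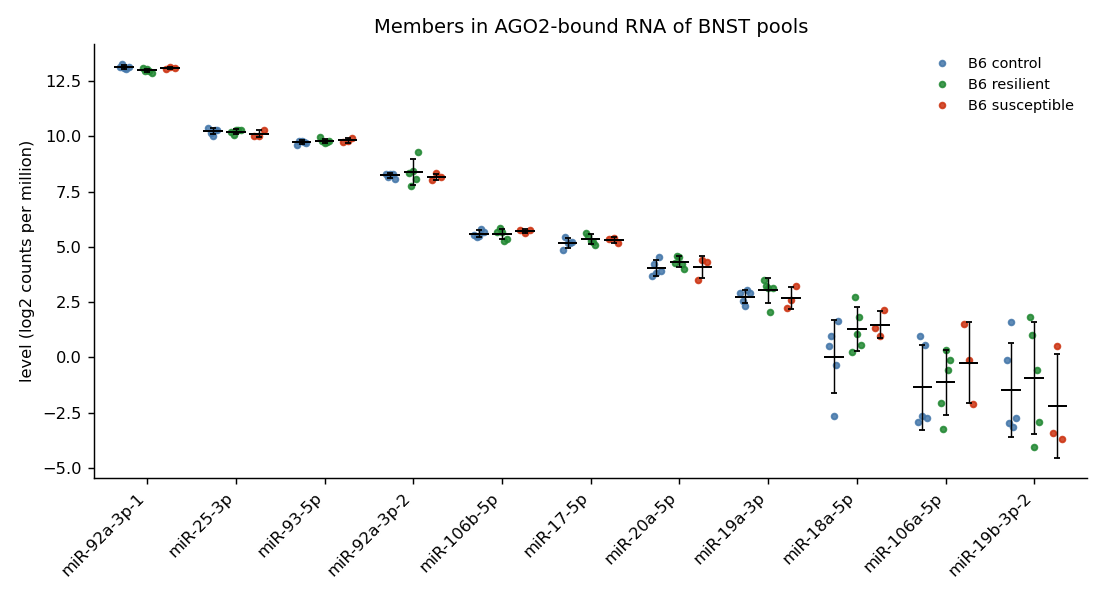
Levels of the members bound to AGO2 in the BNST of B6 mice, in log2 CPM, with 1 point for each pool, a bar at the group mean and an error bar of 1 SD for control, resilient and susceptible pools. The groups lie on top of each other for the abundant members, with miR-92a-3p near 13.13 and miR-25-3p near 10.22 in controls, and the points spread widely for miR-18a-5p, miR-106a-5p and miR-19b-3p, which have few reads.

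The first question was whether the levels of these miRNAs in the AGO2 pull-down differed after stress. Total RNA of these pools was not analysed here, so loading onto AGO2 and abundance cannot be told apart. In the deposited values, without the study's adjustment for surrogate variables, no member was differentially expressed. The calling rule was an unadjusted p under 0.05 and a fold change (FC) of at least 1.2. Limma called 0 of 11 entries when resilient pools were compared with controls, 0 when susceptible pools were, and 0 when the stressed groups were compared with each other. Over all 788 miRNAs the same rule called 9.52%, 4.70% and 3.93% in these comparisons. At the unadjusted p alone the count was also 0 of 11, the lowest limma p being 0.0647, 0.106 and 0.224. The median log2 FC of the 11 entries was 0.18, 0.05 and -0.02, against -0.015, -0.011 and -0.024 over all miRNAs. These comparisons share pools, so they are not separate evidence.

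For the abundant members the intervals were narrow. MiR-92a-3p under its first copy measured 13.13, 13.28, 13.07, 13.04 and 13.12 in the control pools, 13.08, 12.94, 13.03, 12.94 and 12.88 in the resilient pools and 13.04, 13.14 and 13.08 in the susceptible pools. The resilient values lay at the lower end and overlapped the controls (log2 FC -0.16, 95% interval -0.32 to 0.01, limma p = 0.0647, adjusted p = 0.451, exact permutation p = 0.0238). The susceptible pools differed from controls by -0.04 (-0.23 to 0.15). MiR-25-3p, which has the same seed, differed by -0.01 (-0.21 to 0.18) in resilient and -0.11 (-0.34 to 0.12) in susceptible pools, and miR-93-5p, the main carrier of the miR-17 seed, by 0.06 (-0.12 to 0.25) and 0.09 (-0.12 to 0.30). Each of these intervals includes 0.

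The lower members had wider intervals. MiR-17-5p measured 4.84, 5.46, 5.15, 5.16 and 5.20 in controls, 5.61, 5.51, 5.28, 5.23 and 5.07 in resilient and 5.37, 5.42 and 5.17 in susceptible pools, and the groups overlapped (log2 FC 0.18, -0.17 to 0.53, and 0.16, -0.25 to 0.56). MiR-106b-5p differed from controls by -0.01 (-0.33 to 0.31) in resilient and 0.12 (-0.25 to 0.49) in susceptible pools. MiR-20a-5p differed by 0.28 (-0.22 to 0.79) and 0.05 (-0.54 to 0.63), and miR-19a-3p by 0.28 (-0.42 to 0.97) and -0.05 (-0.86 to 0.75). The second copy of miR-92a-3p differed by 0.15 (-0.26 to 0.56) and -0.07 (-0.54 to 0.40), with 1 resilient pool at 9.30 against 7.77 to 8.41 in the other resilient pools.

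MiR-18a-5p had the largest mean differences among the members, 1.25 in resilient pools (-0.30 to 2.79, limma p = 0.107, exact permutation p = 0.183) and 1.45 in susceptible pools (-0.34 to 3.23, limma p = 0.106, exact permutation p = 0.179). Its control values were 0.52, 0.96, -2.63, -0.34 and 1.65, of which the lowest is the pool with 0 reads. Without the control pool at 1.65 both comparisons were called (log2 FC 1.65 and 1.85). Without the control pool at -2.63 the control mean is higher, so both differences are smaller, and neither was called. The outcome for this miRNA thus rested on single pools of few reads. The study, after adjusting for surrogate variables, reported miR-18a as nominally higher in susceptible mice than in controls, at the same thresholds. It listed Esr1 as a predicted target. That adjustment was not repeated here, and its part in the unlike outcome was not tested. MiR-106a-5p and miR-19b-3p gave intervals that spanned more than 4 log2 units in every comparison.

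**Figure D2:**
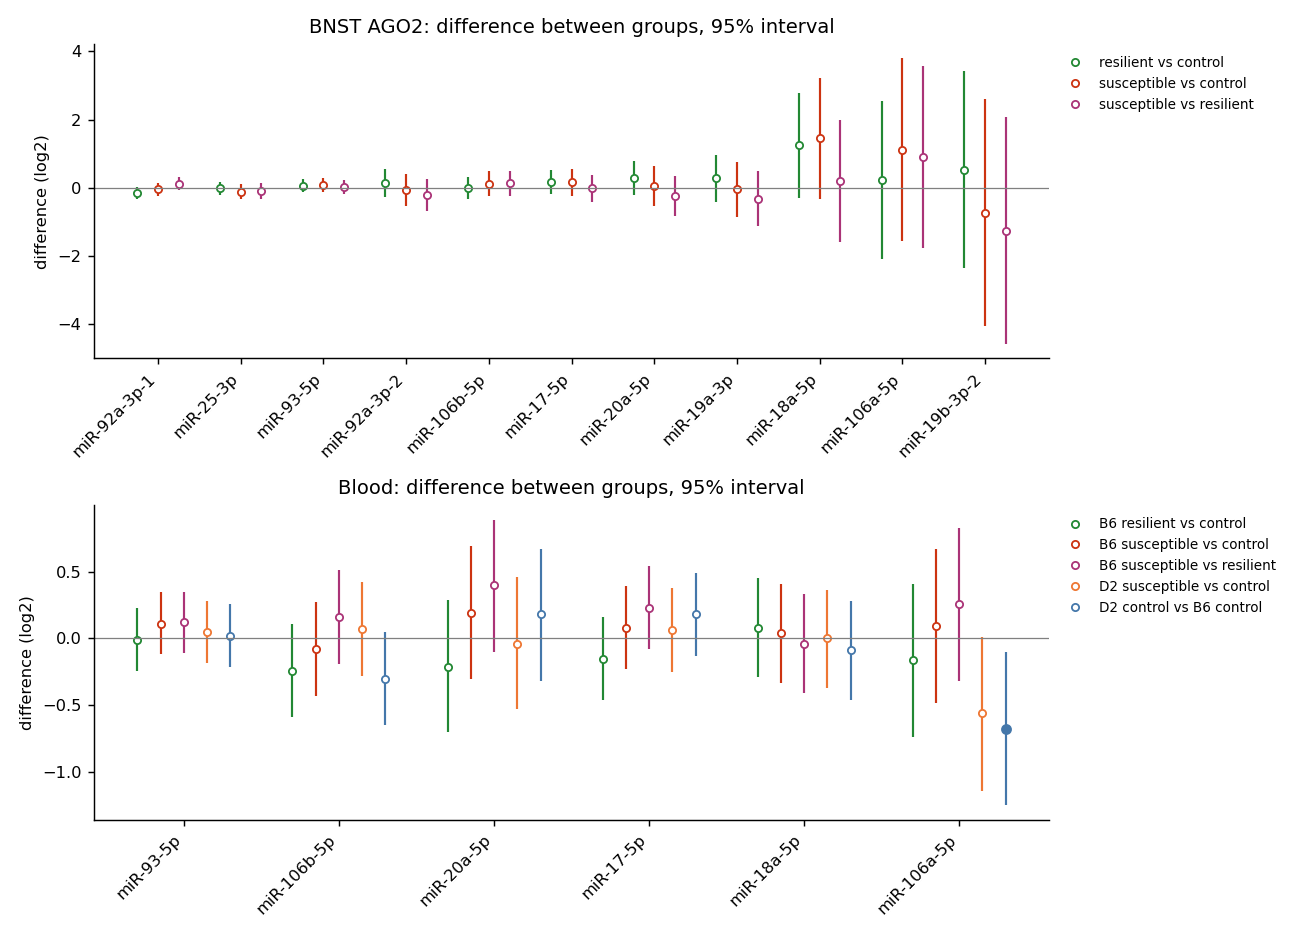
Difference in level (log2) of each member in the comparisons of BNST pools and of blood, with points at the limma estimate and bars of the 95% interval; filled points passed the calling rule. In the BNST every interval includes 0, and in blood the only filled point is miR-106a-5p in D2 against B6 controls, at -0.68.

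The relative miR-92b-3p, which shares the seed of miR-92a-3p, was more abundant than every member (15.38 ± 0.18 in controls, above 99.4% of miRNAs). It measured 15.67, 15.44, 15.21, 15.33 and 15.27 in controls, 15.20, 14.61, 15.41, 14.98 and 14.89 in resilient pools and 15.08, 15.03 and 14.94 in susceptible pools. All 3 susceptible pools lay below all 5 controls, while the resilient pools overlapped them. MiR-92b-3p was called lower in both, by log2 FC -0.36 in resilient pools (SE 0.13, limma p = 0.0115, adjusted p = 0.303, exact permutation p = 0.0556) and -0.37 in susceptible pools (SE 0.15, limma p = 0.0232, adjusted p = 0.884, exact permutation p = 0.0357, the smallest that 3 against 5 pools allow). Neither passed adjustment over all miRNAs, and with quantile normalization both differences were -0.17 and not called. Of the 6 relatives by cluster or seed 4 were measured in the BNST, and miR-92b-3p was the only one of the 4 called. Of 12 opposite arms 6 were measured, and limma called 0, also at the unadjusted p.

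The arm that predominated differed between hairpins. The 5p arm exceeded the 3p arm in 13 of 13 pools for miR-17 (mean log2 ratio 2.61 ± 0.45) and miR-93 (7.13 ± 0.54). The 3p arm exceeded the 5p arm in all pools for miR-25 (-6.52 ± 0.39), for miR-92a-1 (-12.42 ± 1.51) and for miR-106b (-1.83 ± 0.24), so that miR-106b-3p, at 7.41 ± 0.16 log2 CPM in controls and with another seed, was the more abundant product of its hairpin (SD, n = 13 for ratios and 5 for the level).

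The miR-18a hairpin was the 1 hairpin in which the predominant arm varied among pools. The log2 ratio of 5p to 3p was -1.83, -1.82, -5.49, -1.72 and -1.67 in controls, -1.22, 0.15, -1.21, -0.61 and -0.45 in resilient pools and 0.67, -1.05 and 0.48 in susceptible pools. Every stressed pool lay above every control pool. The difference was 1.84 in resilient pools (exact permutation p = 0.00794) and 2.54 in susceptible pools (exact permutation p = 0.0357), the smallest p each design allows. It did not pass Benjamini-Hochberg adjustment over the 18 arm comparisons (adjusted p = 0.143 and 0.321), and it was singled out after its values had been seen. Neither arm alone was called: miR-18a-3p differed by -0.59 (-1.55 to 0.37) and -1.09 (-2.20 to 0.02), beside 1.25 and 1.45 for miR-18a-5p. MiR-18a-3p had 7 to 52 reads per pool, and without the control pool that had 0 reads of miR-18a-5p the differences were 1.09 (exact permutation p = 0.0159) and 1.79 (exact permutation p = 0.0571), each the smallest p that the remaining pools allow, and stressed and control pools still did not overlap.

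**Figure D3:**
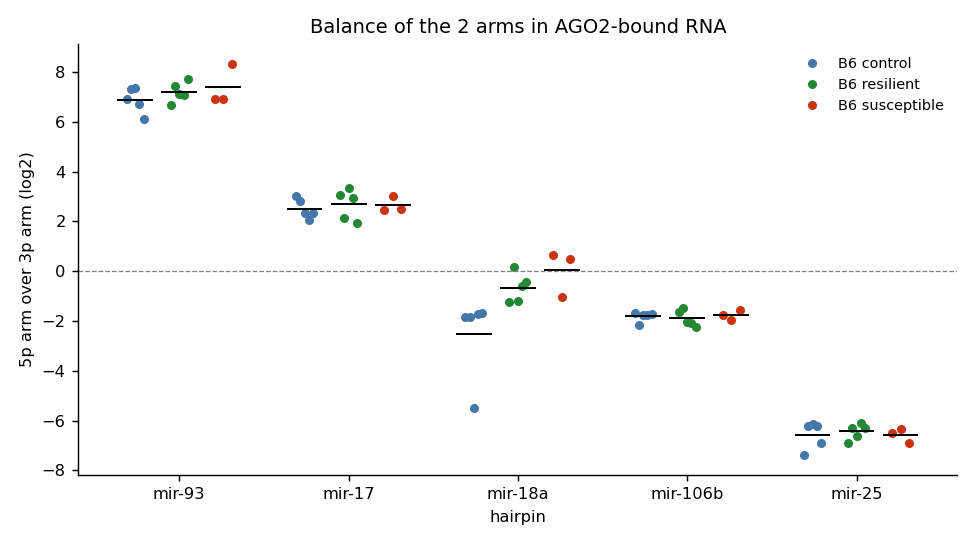
Log2 ratio of 5p to 3p reads for 5 hairpins in the AGO2 libraries, with 1 point for each pool and a bar at the group mean. Each of miR-93, miR-17, miR-106b and miR-25 keeps its sign in all 13 pools, and miR-18a ranges from -5.49 in a control pool without reads of the 5p arm to 0.67 in a susceptible pool.

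AGO2-bound mRNA of the same design was used to examine the host transcripts and known targets. In these values, too, binding to AGO2 and abundance of a transcript cannot be told apart. Mcm7, the host of miR-106b/25, measured 4.87, 5.08, 4.68, 4.92 and 5.12 log2 CPM in controls, 5.30, 5.07, 5.37, 5.27 and 5.19 in resilient pools and 5.38, 5.47, 4.95 and 5.59 in susceptible pools. It rose by log2 0.31 in resilient pools (SE 0.12, limma p = 0.0233, adjusted p = 0.171, exact permutation p = 0.0238) and 0.42 in susceptible pools (SE 0.13, limma p = 0.00551, adjusted p = 0.0817, exact permutation p = 0.0476), with overlapping groups, and the first of these calls was lost without the lowest control pool. Mir17hg, the host of miR-17/92, measured 2.08, 1.19, 1.81, 2.00 and 1.86 in controls, 2.98, 3.26, 1.30, 2.09 and 3.03 in resilient pools and 2.57, 2.41, 1.88 and 2.94 in susceptible pools. It was called higher in resilient pools (log2 FC 0.75, SE 0.33, limma p = 0.0388, adjusted p = 0.216, exact permutation p = 0.0873), a call that was lost without any 1 of 6 pools and, at 0.49, when voom was repeated on the recovered reads. The difference of Mir17hg in susceptible pools was 0.66 (-0.08 to 1.41).

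Of the 6 host and upstream genes 2 were thus called higher in resilient and 1 in susceptible pools, where the rule called 8.65% and 9.65% of all 16587 genes higher, and limma called 0 between susceptible and resilient pools, also at the unadjusted p. The transcription factor genes that drive these clusters did not pass the rule: Myc differed by -0.54 in both comparisons (-1.10 to 0.02 and -1.13 to 0.06), Mycn by 0.10 and 0.21, E2f1 by 0.07 and 0.30 and E2f3 by 0.03 and -0.01. The mature members encoded in Mcm7 and Mir17hg were not called in the same comparisons. The intervals of Mcm7 were 0.05 to 0.57 and 0.14 to 0.69, beside upper bounds of 0.25 and 0.30 for miR-93-5p, 0.18 and 0.12 for miR-25-3p and 0.31 and 0.49 for miR-106b-5p. Among the members encoded in Mir17hg the upper bounds were 0.53 and 0.56 for miR-17-5p, 0.79 and 0.63 for miR-20a-5p, 0.97 and 0.75 for miR-19a-3p and 2.79 and 3.23 for miR-18a-5p. Whether hosts and members differed in response was not tested.

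All 28 known targets of the 4 seeds were measured in AGO2-bound mRNA. In resilient pools 5 of 28 were called against controls, at a background of 17.7% of all genes, with the antiproliferative GTPase gene Rhob, the bone morphogenetic protein receptor gene Bmpr2, Cdkn1a (p21) and Nr3c1 (the glucocorticoid receptor) lower and the transcription factor gene Klf4 higher. In susceptible pools 9 of 28 were called, at a background of 18.9%: Rhob, Bmpr2, Cdkn1a, Nr3c1, App (the amyloid precursor protein), Fbxw7 (a ubiquitin ligase subunit), Klf2 and Adrb1 (the beta-1 adrenergic receptor) were lower and Esr1 (estrogen receptor alpha) was higher. The share of targets called lower, 8 of 28 in susceptible pools, stood against 9.28% of all genes, and the 4 lower of 28 in resilient pools against 9.04%. Between susceptible and resilient pools 1 of 28 was called, at a background of 2.14%, the matricellular protein gene Ccn2 (log2 FC -1.20, -2.12 to -0.28, limma p = 0.0134, adjusted p = 1, exact permutation p = 0.0794). The median log2 FC of the targets was -0.104, -0.190 and -0.072 in the 3 comparisons, against -0.021, -0.011 and 0.009 over all genes.

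By seed, the miR-17 targets had 2 of 12 lower in resilient and 3 of 12 in susceptible pools, with 0 higher. The miR-18 targets had 1 of 4 lower in resilient pools, and in susceptible pools 1 lower and 1 higher. The miR-19 targets had 1 of 7 and 2 of 7 lower. The miR-25/92 targets had 1 of 6 higher in resilient and 2 of 6 lower in susceptible pools. Against resilient pools, Ccn2 of the miR-18 targets was the only call.

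Rhob, a miR-19 target, was called lower in both stressed groups. It measured 6.61, 6.59, 6.91, 6.86 and 6.67 log2 CPM in controls, 6.28, 6.12, 6.41, 6.21 and 6.49 in resilient pools and 6.57, 6.18, 6.35 and 6.27 in susceptible pools. Every stressed pool was below every control. Rhob fell by log2 0.43 in resilient pools (limma adjusted p = 0.0383) and by 0.38 in susceptible pools (adjusted p = 0.0523), with SEs of 0.10 and 0.11, and it was the 1 target with an adjusted p under 0.05 in these comparisons. Bmpr2, a miR-17 target, measured 8.33, 8.34, 8.22, 8.15 and 8.18 in controls, 8.01, 7.83, 7.98, 8.10 and 7.92 in resilient pools and 8.09, 7.84, 7.99 and 7.84 in susceptible pools, again without overlap with controls. It fell by 0.28 (SE 0.08, limma adjusted p = 0.0763) and by 0.30 (SE 0.09, adjusted p = 0.055). In resilient pools Bmpr2 was not called without control pool 1 or 2 (-0.25 each) or resilient pool 2 (-0.24), and in susceptible pools it was not called with voom on the recovered reads (-0.23) or quantile normalization (-0.26).

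Nr3c1 fell by 0.29 in resilient pools (limma p = 0.00555, adjusted p = 0.0966, exact permutation p = 0.00794, no overlap) and by 0.27 in susceptible pools (limma p = 0.013, adjusted p = 0.121, exact permutation p = 0.0317). The call of Nr3c1 in resilient pools was lost without control pool 1 or resilient pool 1 (-0.26 each). In susceptible pools it was lost without any 1 of 4 pools (-0.26 to -0.20) and with sample weights, quantile normalization or voom on the recovered reads (-0.25, -0.24 and -0.19). Cdkn1a, at 3.45 ± 0.50 in controls, fell by 0.57 and 0.66 (limma adjusted p = 0.178 and 0.137), and 1 control pool at 4.28 lay above all others: without it the differences were -0.37 and -0.45 and not called. App fell by 0.33 in susceptible pools (limma p = 0.0137, adjusted p = 0.124, exact permutation p = 0.0159), with all 4 pools below all controls, and without 1 of these pools the difference was -0.24 and not called. Adrb1 measured 5.75, 6.16, 6.56, 6.50 and 5.75 in controls and 5.68, 5.10, 5.70 and 5.46 in susceptible pools, where it fell by 0.66 (limma p = 0.0111, adjusted p = 0.112, exact permutation p = 0.0159), and its difference in resilient pools was -0.30 (-0.76 to 0.16). Klf4 rose by 0.63 in resilient pools (limma p = 0.037) and Esr1 by 0.61 in susceptible pools (limma p = 0.0491, and exact permutation p = 0.111 for each), both with overlapping groups. Leaving out single pools of the comparison took these calls away in 5 of 10 and 7 of 9 cases, with lowest differences of 0.42 and 0.37. Bcl2l11, the gene of BIM, differed by 0.13 (-0.24 to 0.51) and 0.10 (-0.30 to 0.50).

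The seed matches are shown for 4 targets that were named whatever their outcome, 1 for each seed, of which Cdkn1a, Esr1 and Adrb1 were called in a comparison above and Bcl2l11 was not. They are printed as 30 bases of the annotated 3′ UTR (GRCm38, plus strand of each chromosome) with the bases complementary to the seed, and the A that often follows, in capitals. For Cdkn1a the match is to the 7 seed bases only.
Cdkn1a, miR-17 seed, chr17:29099829-29099835: agacctgaataGCACTTTggaaaaatgagt
Esr1, miR-18 seed, chr10:5003274-5003281: gtgtttaagaaGCACCTTAtatagtataat
Adrb1, miR-19 seed, chr19:56724738-56724745: tggaaggccatTTTGCACAgtgttaggcat
Bcl2l11, miR-25/92 seed, chr2:128162449-128162456: ccactgtacctGTGCAATActgctgtaaat

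Over the transcriptome the 8-base matches GCACTTTA, GCACCTTA, TTTGCACA and GTGCAATA, searched on the transcript strand of the longest annotated 3′ UTR, occurred in 4.56%, 1.70%, 6.16% and 2.96% of 13858 genes. A match is a description and not a functional site. UTR length itself went with direction: in susceptible pools 16.1% of genes with UTRs under 500 bases were called higher and 5.53% lower, whereas for UTRs of at least 2000 bases these shares were 5.45% and 13.9%. Among genes with UTRs of at least 2000 bases, 14.1% without any of the 4 matches were called lower in susceptible pools. With a match for the miR-17, miR-18, miR-19 or miR-25/92 seed the shares were 14%, 17.3%, 12.6% and 13.8%. In resilient pools the corresponding shares were 12.5% without a match and 11.6%, 16%, 11.9% and 9.45% with one. The 8 of 28 known targets called lower in susceptible pools were not tested against genes of the same UTR length.

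Other transcripts in the AGO2 pull-down also differed between groups. Of 5 neuronal markers 1 was called lower in resilient pools (Rbfox3, log2 FC -0.35) and 4 in susceptible pools (Rbfox3, Slc32a1, Snap25 and Syt1, from -0.66 to -0.38), with summed levels of 1767 ± 108 CPM in control, 1601 ± 93.8 in resilient and 1394 ± 166 in susceptible pools. In susceptible pools 1 of 3 oligodendrocyte markers was lower, and so was 1 of 3 astrocyte markers, Slc1a3, by log2 FC -0.32 (oligodendrocyte sums of 3553, 2900 and 2120 CPM and astrocyte sums of 314, 302 and 290 CPM in control, resilient and susceptible pools). Hba-a1 of the 3 erythroid markers measured of 6 was lower in resilient pools, and Itga2b, the 1 of 3 platelet markers measured, was higher in susceptible pools (log2 FC 1.11), with 0 of 3 markers of dividing cells and not the leukocyte gene Ptprc called by limma. The B cell, T cell and neutrophil markers were not among the genes measured. In bulk tissue, fewer cells of a type and less RNA per cell cannot be told apart, and the part of these differences in the target values was not tested.

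Among AGO2-bound miRNAs of other cell types, the pair of endothelial and platelet miRNAs miR-126a-3p and miR-126a-5p was called higher in resilient pools (summed levels 4190 CPM in control, 5515 in resilient and 4461 in susceptible pools), and miR-126a-5p lower in susceptible than in resilient pools. Of 5 erythroid miRNAs, miR-144-5p and miR-451a were called higher in resilient pools and miR-144-5p in susceptible pools. MiR-144-3p differed from controls by 0.34 in resilient and 0.51 in susceptible pools and was not called. In the other direction, miR-486a-5p differed by -0.13 and -0.17 and miR-486b-5p by -0.31 and -0.44, also without a call. Of the 5 brain miRNAs (summed levels 48351, 42970 and 48346 CPM), the first copies of miR-128-3p and miR-138-5p were lower in resilient pools, by log2 FC -0.30 and -0.58, while their second copies differed by 0.06 and -0.30 and were not called. Between susceptible and resilient pools the first copy of miR-128-3p was higher by 0.30, and its second copy differed by -0.25 and was not called. The first copy of miR-124-3p, a neuronal miRNA whose other copies were not analysed here, was called higher in susceptible than in resilient pools, with 7, 12 and 5 reads against 7 reads in 1 resilient pool and 0 in the other 4, so this call rested on very few reads. The lymphocyte, myeloid and leukocyte lists had 0 calls by limma of 3, 1 and 2 measured miRNAs, also at the unadjusted p. Their part in the member values was not tested.

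In blood the miR-106b/25 cluster led among the 5p members. The 6 measured members took 6.03 ± 0.12% of miRNA reads in B6 control, 5.74 ± 0.434% in B6 resilient, 6.32 ± 0.239% in B6 susceptible, 6.71 ± 0.59% in D2 control and 7.00 ± 0.776% in D2 susceptible mice (SD, n = 5 each). Of these reads 91.1% in B6 controls came from miR-93-5p and miR-106b-5p of the miR-106b/25 cluster and 8.86% from miR-17-5p, miR-18a-5p and miR-20a-5p. Since miR-92a-3p and miR-25-3p were not analysed in blood, these shares are of the 5p members only.

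MiR-93-5p was the most abundant member, at 15.44 ± 0.11 log2 CPM in B6 controls (above 98.0% of miRNAs). It was followed by miR-106b-5p at 13.68 ± 0.15, miR-20a-5p at 11.60 ± 0.35, miR-17-5p at 10.85 ± 0.21, miR-18a-5p at 9.19 ± 0.10 and miR-106a-5p at 2.37 ± 0.53. The order held in all 5 groups and in each of the 25 mice. Ranges of neighbours overlapped only between miR-20a-5p and miR-17-5p, in B6 control, D2 control and D2 susceptible mice, and between miR-106b-5p and miR-20a-5p in D2 controls. MiR-18a-5p and miR-20a-5p, whose mean levels were above 24.2% and 54.4% of the miRNAs in the BNST libraries, were above 88.6% and 93.3% of those measured in blood. These ranks depend on which miRNAs each list holds, and the blood list is shorter with few 3p miRNAs, so they are not compared.

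**Figure D4:**
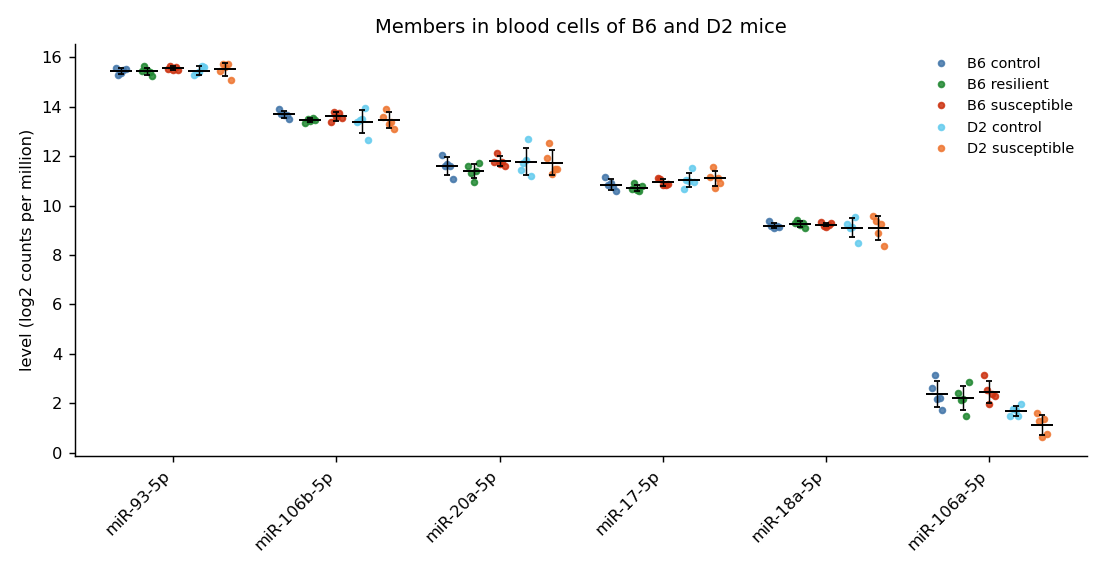
Levels of the 6 members measured in blood cells, in log2 CPM, with 1 point for each mouse, a bar at the group mean and an error bar of 1 SD for the 5 groups. MiR-93-5p stays near 15.44 in every group, D2 mice spread more than B6 mice for miR-106b-5p and miR-18a-5p, and miR-106a-5p is lowest in D2 susceptible mice, at a mean of 1.14.

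Stress left no member differentially expressed in blood of either strain. Limma called 0 of 6 in B6 resilient against control mice (background 4.35% of 299 miRNAs), in B6 susceptible against control mice (4.01%), in B6 susceptible against resilient mice (3.01%) and in D2 susceptible against control mice (8.70%). At the unadjusted p the counts were also 0, with lowest limma p-values of 0.17, 0.332, 0.112 and 0.0552. The first 3 comparisons share mice.

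MiR-93-5p differed by -0.01 (-0.24 to 0.23) in B6 resilient, 0.11 (-0.12 to 0.35) in B6 susceptible and 0.05 (-0.18 to 0.28) in D2 susceptible mice against their controls. MiR-18a-5p differed by 0.08 (-0.29 to 0.45), 0.04 (-0.33 to 0.41) and -0.00 (-0.37 to 0.36). For miR-17-5p the differences were -0.15 (-0.46 to 0.16), 0.08 (-0.23 to 0.39) and 0.06 (-0.25 to 0.38). MiR-93-5p thus had the narrowest intervals, and each of these intervals included 0.

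MiR-20a-5p measured 11.59, 11.33, 10.94, 11.40 and 11.71 in B6 resilient and 11.76, 12.13, 11.69, 11.77 and 11.59 in B6 susceptible mice. Susceptible mice lay higher with some overlap, by log2 FC 0.40 (-0.10 to 0.89, limma p = 0.112, exact permutation p = 0.0317). The B6 controls, at 12.05, 11.59, 11.67, 11.61 and 11.07, spanned both groups. With the spread estimated from the compared groups alone, without the D2 mice, the same difference was called. MiR-17-5p differed between B6 susceptible and resilient mice by 0.23 (-0.08 to 0.54, limma p = 0.141, exact permutation p = 0.0397) and was not called. MiR-106b-5p measured 13.90, 13.71, 13.67, 13.64 and 13.49 in B6 controls and 13.34, 13.50, 13.40, 13.52 and 13.46 in B6 resilient mice, with a difference of -0.24 (-0.59 to 0.11, limma p = 0.17, exact permutation p = 0.0238).

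MiR-106a-5p, encoded on the X chromosome, was the member with the largest differences in the blood comparisons that involve D2 mice and the one with the fewest reads, 14 to 72 per mouse. It measured 2.64, 3.13, 2.17, 2.21 and 1.73 in B6 controls, 1.5, 1.78, 1.73, 1.51 and 1.96 in D2 controls and 1.62, 1.28, 0.64, 1.36 and 0.77 in D2 susceptible mice. D2 controls lay below all but the lowest B6 control. D2 controls were called lower than B6 controls by log2 FC -0.68 (SE 0.28, -1.25 to -0.10, limma p = 0.0226, adjusted p = 0.103, exact permutation p = 0.0317), where 12.0% of all blood miRNAs were called lower and 25.4% were called in all. The call was lost without either of the 2 highest B6 controls (-0.61 and -0.49) and when the voom transformation was repeated on the recovered reads (-0.50).

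Within D2, miR-106a-5p differed between susceptible and control mice by -0.56 (-1.14 to 0.01, limma p = 0.0552, adjusted p = 0.539, exact permutation p = 0.0238), which became a call without any 1 of 6 mice, of which 5 were B6 mice that enter only the estimate of the spread. With the D2 groups given by the column names the difference was -0.36 and was not called. In B6 it did not show that direction, with means of 2.37 in controls and 2.47 in susceptible mice, and the test of the difference between the strains gave 0.65 (B6 minus D2, -0.16 to 1.47, limma adjusted p = 0.918), which passed the calling rule only without B6 control 2, at 0.84 for miR-106a-5p. Limma called 0 of 6 members in that test of strain difference, at a background of 4.35% and with 0 at the unadjusted p. No other member was called between the control mice of the strains: miR-106b-5p differed by -0.30 (-0.65 to 0.05), miR-17-5p by 0.18 (-0.13 to 0.49), miR-20a-5p by 0.18 (-0.32 to 0.67), miR-18a-5p by -0.09 (-0.46 to 0.28) and miR-93-5p by 0.02 (-0.21 to 0.26). The sample titles carry prefixes that do not cross the strains (EC3 and EC4 in B6, ED3, ED4 and ED6 in D2), so whatever the prefixes mark and the strain cannot be told apart here.

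Of 12 opposite arms 3 and of 6 relatives 3 were measured in blood. With the labels, limma called 0 of the 3 relatives in each comparison. Between D2 and B6 controls miR-20b-5p differed by -0.39, miR-18b-5p by -0.67 and miR-32-5p by -0.46. Between D2 susceptible and control mice they differed by -0.35, -0.56 and -0.27. In the test of strain difference (B6 minus D2) they gave 0.72, 1.23 and 0.16. MiR-25-5p measured 5.31, 5.72, 5.73, 5.74 and 6.20 in D2 controls and 5.58, 5.90, 6.36, 6.49 and 6.48 in D2 susceptible mice, and was called higher there with overlap (log2 FC 0.42, 0.03 to 0.81, limma p = 0.0358, adjusted p = 0.539, exact permutation p = 0.0873). With the D2 groups given by the column names the difference was 0.35 and was not called.

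Blood mRNA of the same mice placed the host genes beside the members. Mcm7 measured 4.75, 4.39, 4.71, 4.54 and 4.45 log2 CPM in B6 controls and 5.48, 5.14, 5.28, 5.30 and 6.14 in D2 controls, with no overlap. It was higher in D2 by log2 FC 0.90 (SE 0.15, 0.59 to 1.21, limma adjusted p = 9.85e-05), and so were E2f1 (1.83, adjusted p = 2.93e-05) and E2f3 (1.08, adjusted p = 0.00337), which made 3 of 5 measured host and upstream genes higher where 15% of 13084 genes were. Mir17hg differed by -0.38 (-0.81 to 0.06), which with the column-name groups was -0.44 (-0.86 to -0.01) and called, and Myc by 0.09 (-0.50 to 0.69). While Mcm7 was higher in D2 blood, miR-106b-5p and miR-93-5p, which lie inside it, were not called higher. Their upper bounds were 0.05 and 0.26, and the lower bound for Mcm7 was 0.59. The mRNA and miRNA libraries were scaled apart, so these bounds are not on a common scale. Whether the strain difference of the host differed from that of its members was not tested. The markers of dividing cells Mki67 and Tfrc were higher in D2 controls too (log2 FC 0.71 and 0.88, 2 of 3 markers). Their part in the difference of Mcm7 was not tested.

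In the stress comparisons limma called 0 of 5 host and upstream genes in blood, also at the unadjusted p. Mcm7 differed by 0.11 in B6 resilient, -0.04 in B6 susceptible and -0.16 in D2 susceptible mice against controls, and Mir17hg by -0.31, -0.28 and 0.25.

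**Figure D5:**
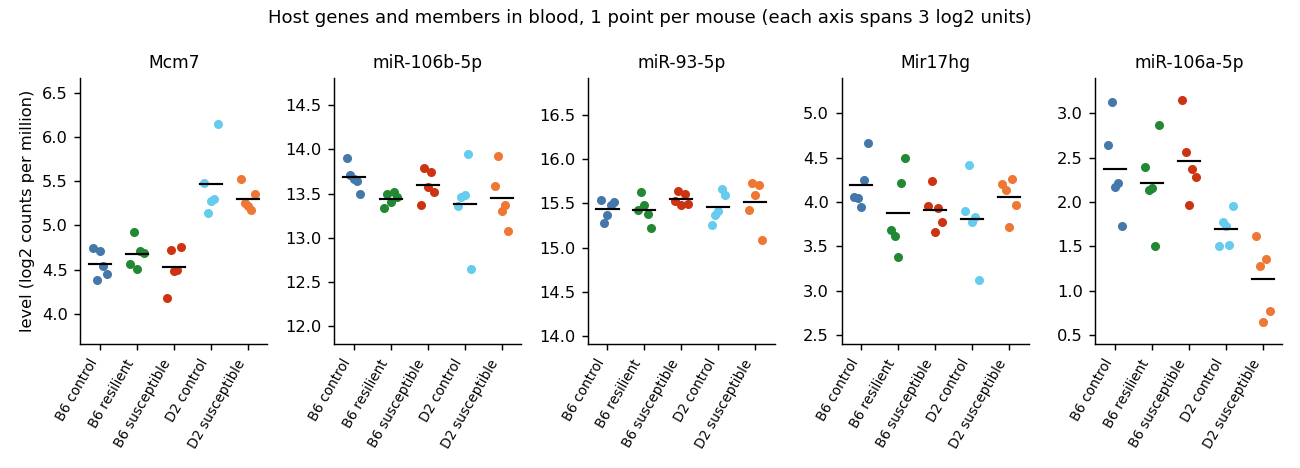
Blood levels in log2 CPM of Mcm7 with miR-106b-5p and miR-93-5p, which it hosts, and of Mir17hg and miR-106a-5p, with 1 point for each mouse and a bar at the mean of each of the 5 groups; each axis spans 3 log2 units. Mcm7 is 0.90 higher in D2 than in B6 controls, its miRNAs are not called higher, and miR-106a-5p steps down from B6 to D2 mice.

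Across mice of a strain no relation between the level of a member and that of its host gene passed adjustment. Of 10 host and member pairs, 5 in each strain, none passed adjustment (lowest adjusted permutation p of 0.409 for Pearson's r and 0.507 for Spearman's rho). In B6 mice (n = 15) r was -0.05 for Mir17hg with miR-17-5p (rho -0.13), -0.44 with miR-18a-5p (rho -0.42, permutation p = 0.116) and 0.18 with miR-20a-5p (rho 0.28), and 0.25 and 0.12 for Mcm7 with miR-106b-5p and miR-93-5p (rho 0.25 and 0.23). Their permutation p-values were 0.846, 0.102, 0.519, 0.368 and 0.666 for r and 0.646, 0.116, 0.305, 0.369 and 0.405 for rho. Without the 2 mice farthest from the median of the host gene r was -0.04, -0.45, 0.33, 0.18 and 0.05. With the group means subtracted, Mcm7 and miR-106b-5p gave r = 0.61 (permutation p = 0.0171, adjusted p = 0.171) and rho = 0.52 (permutation p = 0.0463, adjusted p = 0.42), which did not pass adjustment. In D2 mice (n = 10) the strongest was Mcm7 with miR-106b-5p, at r = -0.66 (permutation p = 0.0548, adjusted p = 0.409) and rho = -0.22 (permutation p = 0.537), and it rested on 2 mice, since r was -0.14 without the 2 farthest from the median of Mcm7. The other D2 pairs gave r from -0.03 to 0.52 (lowest permutation p = 0.123), and the D2 prefixes hold too few mice for a value of their own. Within the B6 mice, Mir17hg and miR-20a-5p gave r = 0.93 in the 7 mice with title prefix EC3 (permutation p = 0.00182, adjusted p = 0.0091, rho 0.96) and r = -0.62 in the 8 with prefix EC4 (permutation p = 0.0874, adjusted p = 0.183, rho -0.36, permutation p = 0.388), which did not pass. These p-values were adjusted over the 5 pairs of each prefix alone. The split by prefix was chosen after the data had been seen, and the difference between the sets was not tested. The other 4 pairs, in the order above, gave r of 0.78, -0.24, 0.39 and 0.57 in EC3 mice and -0.69, -0.34, -0.29 and -0.60 in EC4 mice, none of which passed adjustment.

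Of the 28 known targets 25 were measured in blood. Limma called 0 of 25 in B6 resilient mice (background 2.11%), 1 in B6 susceptible mice (4.50%), 0 between B6 susceptible and resilient mice (2.03%) and 0 in D2 susceptible mice (1.57%), and no further target passed the unadjusted p alone. The 1 call was Thbs1, a platelet and matrix protein gene and miR-19 target, at 7.72, 7.32, 8.06, 7.85 and 7.03 in B6 controls and 10.03, 7.98, 9.0, 7.40 and 8.5 in B6 susceptible mice. It was higher by log2 FC 0.98 (0.22 to 1.75, limma p = 0.0142, adjusted p = 0.968, exact permutation p = 0.0794), the groups overlapped, and without the mouse at 10.03 the difference was 0.62 and not called. Of the 3 platelet markers Itga2b and Ppbp were also called higher in these mice, by 0.90 and 0.89 (summed levels 3095 CPM in B6 control and 5396 in B6 susceptible mice), and their part in the value of Thbs1 was not tested.

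Against their controls, Bcl2l11 differed by -0.12 in B6 resilient, -0.01 in B6 susceptible and 0.17 in D2 susceptible mice. Nr3c1 differed by -0.09, -0.16 and -0.06 and Esr1 by 0.13, 0.88 and -0.51, and all of these intervals included 0. The spread between mice thus covered the differences of these 3 targets. With the column-name groups Smad4 was called lower in D2 susceptible mice (-0.33, -0.56 to -0.09), against -0.07 with the labels.

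Between D2 and B6 controls 7 of 25 targets were called, at a background of 26.4%. E2f1, Smad4 (0.84, limma adjusted p = 3.48e-05), Bmpr2 (1.08, adjusted p = 0.0104), Bcl2l11 (0.84, adjusted p = 9.64e-05), Rbl1 and Rhob were higher and Ccnd1 was lower. Nr3c1 differed by 0.16 (-0.11 to 0.42) and Esr1 by 0.75 (-0.25 to 1.76). By seed, 3 of 11 miR-17 targets were higher and 1 lower, 1 of 3 miR-18 targets was higher, 1 of 6 miR-19 targets was higher and 1 lower, and 1 of 6 miR-25/92 targets was higher. The median log2 FC of the targets was 0.134, against 0.007 over all genes. With the column-name groups Zbtb4 was called lower too (-0.40, against -0.28 with the labels).

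Markers of blood cell types also differed between the strains in the same libraries. The leukocyte miRNA miR-142a-5p was lower in D2 controls by log2 FC -1.30 (6311 CPM in B6 and 2741 in D2 controls), miR-223-5p of neutrophils was higher by 0.76, miR-486b-5p was higher and miR-144-5p lower, and the erythroid miRNAs summed to 404286 CPM in B6 and 332993 in D2 controls. In mRNA, all 3 B cell markers and 2 of 5 erythroid genes, among them Slc4a1, were lower and Ppbp and Cd3g were higher in D2 controls. MiR-223-5p was also higher in B6 susceptible than in B6 control mice (0.49), and this difference exceeded that in D2 mice by 0.88. MiR-486a-5p and miR-486b-5p were higher in D2 susceptible mice, Cd3e was higher in B6 susceptible than in resilient mice, and limma called 0 of 3 neutrophil markers, 0 of 2 lymphocyte miRNAs and the platelet miRNA miR-126a-5p in none of the comparisons. The pan-leukocyte gene Ptprc was not called. Of brain markers, none of the 5 miRNAs and 1 of 5 neuronal genes were measured in blood. With the column-name groups Slc4a1 (-0.70) and miR-486b-5p (0.35) were not called between the control mice of the strains and Itga2b was (0.82). In D2 susceptible mice the platelet genes Ppbp, Pf4 and Itga2b were then lower (-0.87, -0.82 and -0.86) and the B cell gene Cd79a higher (0.56), and miR-18b-5p was called in the test of strain difference (1.60). The part of these differences in the member values was not tested.

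Finally, each member was matched with the miRNA whose log2 level followed it most closely. In blood, over 25 mice, miR-17-5p and miR-20a-5p were each other's closest match (r = 0.83, and 0.84 with the group means subtracted). MiR-106b-5p and miR-18a-5p were both closest to miR-30e-5p (r = 0.75 and 0.74), miR-93-5p to let-7g-5p (0.63) and miR-106a-5p to miR-194-5p (0.78, and 0.41 with group means subtracted). In the BNST, over 13 pools, none of the 11 entries had another member as its closest match. The closest match was let-7i-5p for miR-25-3p (0.88), miR-34a-5p for miR-93-5p (0.82), the second copy of miR-103-3p for miR-17-5p (0.83), miR-381-3p for miR-106b-5p (0.76), miR-221-5p for miR-20a-5p (0.64), miR-5134-3p for miR-19a-3p (0.75), miR-362-5p for miR-18a-5p (0.86), miR-106b-3p for miR-106a-5p (0.85), miR-322-3p for miR-19b-3p (0.80) and miR-5626-3p and miR-27b-3p for the copies of miR-92a-3p (0.73 and 0.65). These are descriptions over samples that share scaling and depth, and each is the highest of 298 candidates in blood or 787 in the BNST (786 for the copies of miR-92a-3p).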

How the data were processed

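The authors counted small RNA reads on miRBase miRNAs after alignment with Bowtie 1.1.1 (named in the processing notes) and mRNA reads on annotated genes, and deposited log2 CPM made with voom. Their stated filter was at least 1 CPM in at least 3 BNST pools or 6 blood samples. The deposited miRNA values meet it, while both mRNA tables hold genes that reach 1 CPM in as few as 2 samples. Each of the 77 deposited columns was used under its label. The BNST adjustment for surrogate variables and cohort described by the authors is not part of these values and was not repeated. Values were taken back to reads, all of them whole within 0.0001 reads.

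Differential expression was tested with limma 3.58.1 (R 4.3.3), fitting every group of a data set together with empirical Bayes moderation and a trend of variance with level. The calling rule was an unadjusted p under 0.05 with a fold of at least 1.2. P-values were adjusted over all features by the Benjamini-Hochberg method, intervals are 95% intervals, and permutation tests over samples were exact and two-sided (100000 resamples for correlations of 10 or more mice). With 3 against 5 samples the smallest exact p is 0.0357. The samples are pools or single mice, so p-values measure the spread between these. No replicate numbers paired the samples: same-numbered samples correlated between -0.17 and 0.14.

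The text names all members, relatives that were called or abundant, host and upstream genes, 6 fixed targets, and the 3 called targets with the smallest p per comparison. The other called targets were named after their values had been seen. The members, lists and tests were chosen with earlier results of these data known. Alternatives were another normalization, voom on recovered reads, sample weights, no trend, a filter at a mean log2 CPM of 2, the compared groups alone, a pseudocount of 2 reads, title prefix or replicate number as a term, 1 value per mature miRNA, the column-name groups, and each sample left out. In data simulated with 2-fold changes in susceptible against control samples, the procedure called 58.2% of changed AGO2 miRNAs, 73.3% of blood miRNAs, 89.5% of AGO2 genes and 84.0% of blood genes. Of unchanged features it called 3.65%, 4.18%, 4.53% and 4.42%. The simulation used normal noise and drew from all features. Its shares therefore do not describe smaller differences or members with few reads. Sequences, positions and UTRs were read from RefSeq and GRCm38 annotation with Python 3.11.15, pandas 2.3.3 and SciPy 1.17.1, and figures were drawn with matplotlib 3.10.9. Other tissues, proteins and raw reads were not analysed here, and a few genes of the lists are counted but not reported by name.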

Additional observations from a re-analysis of the deposited data

Results flagged for a closer look

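In 6 of 113 sets of 5 samples tested, 1 sample stood far from the others by Dixon's criterion, which chance alone gives in about 1 of 20 sets. MiR-19a-3p was at 2.07 log2 CPM in 1 resilient BNST pool, against 3.15 to 3.52 in the other 4. In blood, miR-18a-5p was at 9.37 in 1 B6 control, against 9.11 to 9.18. The members together took 6.243% of miRNA reads in 1 B6 control, against 5.944% to 6.009%, and 4.998% in 1 B6 resilient mouse, against 5.81% to 6.131%. The target gene Esr1, which has few reads in blood, was at -1.40 log2 CPM in 1 B6 control (0.21 to 0.70 in the others) and at -1.55 in 1 B6 resilient mouse (0.14 to 0.80 in the others). None of these samples was left out of the values reported.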

How the results depend on the processing

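Counts of called members and targets were recomputed under each alternative: 469 values lay within 1.5 times the reported count, 38 did not, and no called value turned its sign. In blood, miR-20a-5p was called between B6 susceptible and resilient mice (1 member instead of 0) with sample weights and with only the compared groups. Quantile normalization called 1 member in D2 susceptible against control mice and 2 in D2 against B6 controls, where the filter on low values left 0. Between susceptible and resilient pools, 2 targets were called with sample weights and 0 with that filter. In D2 susceptible mice 2 targets were called with sample weights, 1 with only the compared groups and 1 with the column-name groups. In the EC3 mice alone, a choice made after seeing the data, 1 host correlation passed adjustment over the pairs of that set only.

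With 1 sample left out at a time, called members ranged from 0 to 1 in resilient and in susceptible pools (1 without B6 control 5, miR-18a-5p), from 0 to 1 in D2 susceptible mice (1, miR-106a-5p, without B6 control 2 or 5, B6 resilient 4 or 5, B6 susceptible 1 or D2 susceptible 1), from 0 to 2 in D2 against B6 controls (0 without B6 control 1 or 2, 2 without D2 control 4) and from 0 to 1 in the difference between strains (1 without B6 control 2). Called targets ranged from 3 to 7 in resilient pools, from 6 to 11 in susceptible pools and from 1 to 3 between them, and in blood from 0 to 2 in B6 resilient mice, 1 to 4 in B6 susceptible mice (4 without B6 susceptible 1) and 0 to 1 between these. With a replicate block in the BNST data, limma called 0 members in each comparison and 5, 10 and 1 targets against 5, 9 and 1 without it, but the numbers do not pair the samples. The cause of these changes was not tested. A title prefix term could not be fitted between the strains, and 1 value per mature miRNA changes nothing in blood, which has no copies. Few reads limit the values of miR-18a-5p, miR-106a-5p and the second copy of miR-19b-3p in the BNST.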
